A study of Rattus norvegicus with 4 samples.

Results

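The genes that build, load and control MHC class II molecules were followed from the junctional epithelium of rat teeth to the peri-implant epithelium of rat implants. The set holds 9 genes of the 14217 with a gene symbol of their own on the array: the class II chains RT1-Da, RT1-Db1, RT1-Ba and RT1-Bb, the peptide exchange chains RT1-DMa and RT1-DMb, the invariant chain Cd74, the protease Ctss and the transactivator Ciita. They were chosen by name, with earlier results of these data known, and 15 probe sets carry 1 of these symbols. In peri-implant epithelium 6 of the 15 probe sets, for RT1-Da, RT1-Db1, RT1-Ba, RT1-Bb, Cd74 and Ctss, rose by 0.64 to 2.23 on the log2 scale, and 0 fell. For comparison, 4.74% of all probe sets, dim ones included, rose and 4.16% fell. RT1-DMa, RT1-DMb and Ciita did not pass the test, and all calls depended on how the spread between arrays was modelled.

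MHC class II molecules are pairs of an alpha and a beta chain that present peptides from endosomes to helper T cells. Newly made pairs are capped by the invariant chain, which is cut down in the endosome by cathepsin S and other proteases, and the DM pair then exchanges the remaining fragment for an antigenic peptide. The class II, DM and invariant chain genes are switched on together by the transactivator encoded by Ciita. This happens constitutively in dendritic cells, macrophages and B cells and under interferon-gamma in many epithelia. In gingiva, Langerhans cells and other antigen-presenting cells lie within the epithelium itself.

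The study compared 2 arrays of junctional epithelium, the collar that attaches the gingiva to the tooth, with 2 arrays of peri-implant epithelium, which lines the gingiva around an implant of titanium alloy. Male Sprague-Dawley rats lost a left upper first molar and received an implant when 4 weeks old, and tissue came from 20 rats 4 weeks after implant placement. Both groups carry the same treatment entry in the labels, tooth extraction and implant placement. Each epithelium was cut from frozen sections by laser microdissection. The sources used here do not say whether an array holds RNA of 1 rat or a pool, so p-values measure only the spread between these samples, which may be technical.

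Signals are log2 values. The background level was set at 6.42, the maximum over 4 arrays of 27 control probe sets for bacterial transcripts. Between 54.6% and 56.8% of 31042 probe sets exceeded it on each array. Precision is limited by the number of arrays, and an exact permutation test of 2 against 2 arrays cannot go below p = 0.333. The words rose and fell are used for probe sets with an adjusted p under 0.05 in limma with an intensity trend and robust prior, with Benjamini-Hochberg adjustment over all 31042 probe sets. With limma's default prior 0 of the 31042 probe sets passed (0.0%, smallest adjusted p = 0.125). Without adjustment, 8 of the 15 member probe sets had p under 0.05 in that fit, where 16.9% of all probe sets did.

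The samples were epithelial by their markers. Krt5 and Krt14, keratins of basal cells, read 15.73 to 16.23 on all arrays, and the adhesion proteins Cdh1 (its brighter probe set) and Epcam 13.10 to 13.57. Krt19, a keratin of junctional epithelium, read 13.68 and 13.62 on the junctional arrays and 13.49 and 13.47 on the peri-implant arrays. The other junctional epithelium markers listed, Odam, Amtn and Fdcsp, were not matched to a probe set.

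Of the class II chain genes, 5 share a short upstream sequence, and 4 of these share a second one. Class II genes are known for a compact promoter in which an X box, bound by the RFX complex and neighbouring CREB, stands before a Y box, bound by NF-Y, and together these factors recruit the product of Ciita. RefSeq promoters of the assembly GRCr8, from 250 bases before to 50 bases after the annotated start, matched 7 of the 9 members; Ciita and RT1-DMb were not matched. The Y box core TGATTGG, searched on both strands, stood in 5 of these 7 promoters and in 7.06% of 33469 promoters. The X box core GNNACNGAT, also searched on both strands, stood in 4 of 7 and in 7.83% of all. Both cores were written down after the members' promoters had been read, so the count among members is a description. The stretch from 130 to 31 bases before the start is printed for the 5 genes to show how the boxes are spaced, 5′ to 3′ on the strand of the gene, with the matches in capitals.

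RT1-Da (chr20:4515285-4515384, + strand): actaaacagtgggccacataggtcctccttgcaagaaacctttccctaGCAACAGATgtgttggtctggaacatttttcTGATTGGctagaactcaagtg
RT1-Db1 (chr20:4560193-4560292, - strand): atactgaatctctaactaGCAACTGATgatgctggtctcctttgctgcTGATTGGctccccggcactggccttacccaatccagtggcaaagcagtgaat
RT1-Ba (chr20:4576927-4577026, + strand): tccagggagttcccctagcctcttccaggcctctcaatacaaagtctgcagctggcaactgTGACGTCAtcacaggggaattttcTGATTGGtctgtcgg
RT1-Bb (chr20:4604149-4604248, - strand): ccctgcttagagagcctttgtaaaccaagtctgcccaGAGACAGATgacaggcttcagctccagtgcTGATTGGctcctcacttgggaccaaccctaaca
RT1-DMa (chr20:4712366-4712465, - strand): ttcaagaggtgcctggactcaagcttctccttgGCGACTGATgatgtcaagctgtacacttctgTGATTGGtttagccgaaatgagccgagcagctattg

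In RT1-Da, RT1-Db1, RT1-Bb and RT1-DMa the X box core came first and the Y box core followed on the same strand after 21 or 22 bases. With 10 to 30 bases allowed between the cores, this order on the strand of the gene was found in 7 of the 33469 promoters (0.0209%). The promoters of the 4 members had been read before the cores were written down, so their place among the 7 is a description. The others were RT1-DOb and RT1-Db2, which are also class II genes, and Cdv3. RT1-Ba held the Y box core 45 to 39 bases before the start and the palindrome TGACGTCA, the cAMP response element that CREB binds, 69 to 62 bases before it. That palindrome stood in 1.83% of all promoters, searched on both strands. The X box core as written was not matched in RT1-Ba, which does not show that an X box is absent. None of these cores was found in the windows of Cd74 and Ctss, which likewise does not show that such boxes are absent. The 6 chain genes lie within 196.9 kb of chromosome 20, from 4515393 to 4712335, while Ctss lies on chromosome 2, Ciita on chromosome 10 and Cd74 on chromosome 18.

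**Figure D1:**
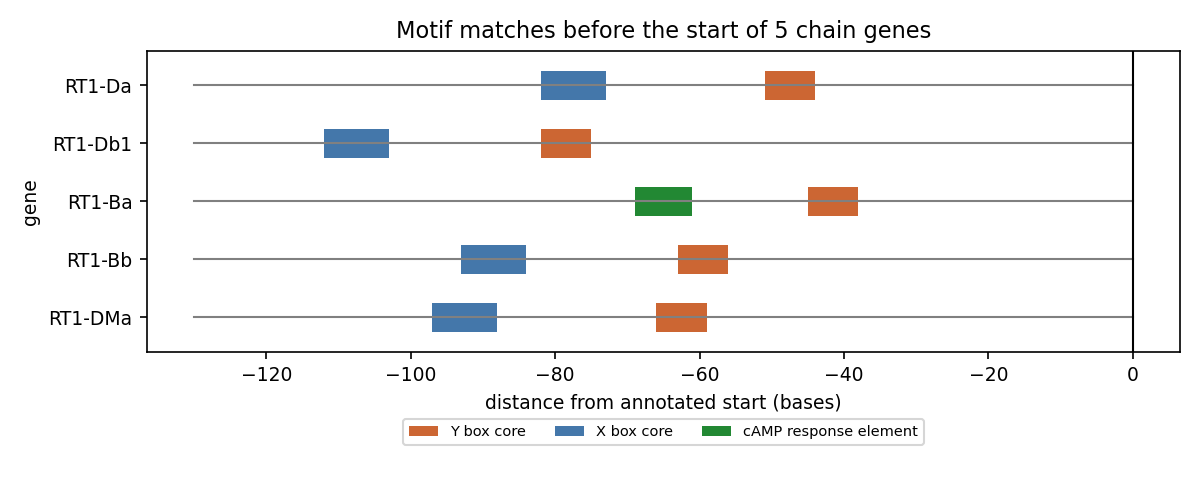
Positions of motif matches (coloured blocks) along the 130 bases before the annotated start of 5 chain genes, with the distance from the start in bases on the x axis. The X box core precedes the Y box core by 21 or 22 bases in RT1-Da, RT1-Db1, RT1-Bb and RT1-DMa.

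The RT1-D pair, the rat counterpart of human HLA-DR, was higher on both peri-implant arrays. As the tissue was measured in bulk, here and below more cells of a type and more RNA per cell cannot be told apart. RT1-Da, its alpha chain (probe set 1370883_at), read 10.48 and 10.86 on the junctional arrays and 11.24 and 11.38 on the peri-implant arrays. The arrays did not overlap, and junctional array 1 was the lowest. The difference was 0.64 (SE 0.13, 1.56-fold, adjusted p = 0.0183 in limma with an intensity trend). RT1-Db1, the beta chain, is represented by 2 probe sets. The brighter, 1370383_s_at, read 10.07 and 10.37 against 11.19 and 11.09, and rose by 0.92 (SE 0.13, 1.89-fold, adjusted p = 0.00278 in the same limma fit). The dimmer, 1370382_at, read 8.86 and 8.79 against 9.31 and 9.52, a difference of 0.59 (SE 0.17) that did not pass (adjusted p = 0.0586 in the same limma fit). The suffix of the brighter probe set marks probes that match more than 1 transcript, and the assembly holds a second beta chain gene, RT1-Db2, so its signal cannot be assigned to RT1-Db1 alone. Neither RT1-Da nor RT1-Db1 passed once any 1 array was left out. Without junctional array 1, RT1-Da differed by 0.45 (limma adjusted p = 0.202) and the brighter RT1-Db1 probe set by 0.76 (limma adjusted p = 0.103). Over the 4 such fits, limma's adjusted p ran from 0.0921 to 0.202 for RT1-Da and from 0.0718 to 0.103 for that RT1-Db1 probe set.

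The RT1-B pair, the counterpart of HLA-DQ, gave the largest rise and the widest disagreement between probe sets. RT1-Ba, the alpha chain, has 4 probe sets, of which 1370822_at was above background on every array. Its signal was 9.94 and 9.74 on the junctional arrays against 10.65 and 10.51 on the peri-implant arrays, and it rose by 0.74 (SE 0.13, 1.67-fold, limma adjusted p = 0.00902), with no overlap of the arrays. A second, 1377334_at, was below background on both junctional arrays (4.25 and 1.19) and just above it on both peri-implant arrays (6.76 and 6.56), at least 1.18-fold higher with junctional signals raised to background. It did not pass (limma adjusted p = 0.0676). The remaining 2 RT1-Ba probe sets, 1381593_x_at and 1392334_at, were below background on all 4 arrays and carry no direction. The 1370822_at call was lost when any 1 array was left out, with limma's adjusted p from 0.0875 to 0.147 and differences from 0.64 to 0.84.

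RT1-Bb, the beta chain, rose by 2.23 (SE 0.19, 4.70-fold, limma adjusted p = 0.000184) on probe set 1371065_at, with 7.77 and 8.23 on the junctional arrays against 10.21 and 10.26 on the peri-implant arrays. Both peri-implant arrays lay above both junctional arrays, and the SD was 0.33 in junctional and 0.04 in peri-implant samples (n = 2 each). The other RT1-Bb probe set, 1371033_at, read 9.35 and 9.40 against 9.70 and 9.77. It differed by 0.36 (SE 0.14, 1.28-fold) and did not pass (limma adjusted p = 0.15). Within each array, 1371065_at stood 1.58 and 1.16 below 1371033_at in junctional samples and 0.51 and 0.49 above it in peri-implant samples. The gap between the probe sets thus moved by 1.87, and that shift was not tested beyond these values. For RT1-Db1 the corresponding gap moved by 0.33. Class II chains are among the most variable proteins between rat strains and Sprague-Dawley rats are outbred, and whether the animals' alleles match the probes was not tested. The 1371065_at call held in each fit that left out 1 array.

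RT1-DMa and RT1-DMb, whose products remove the invariant chain fragment from the class II groove, were higher on both peri-implant arrays but did not pass. RT1-DMa read 7.29 and 7.43 on the junctional arrays and 8.06 and 8.37 on the peri-implant arrays, a difference of 0.86 (SE 0.26, 1.81-fold, limma adjusted p = 0.0761). RT1-DMb read 8.71 and 8.36 against 8.93 and 9.15, a difference of 0.50 (SE 0.20, limma adjusted p = 0.157). The arrays of the epithelia did not overlap for either gene. RT1-DMa passed when signals were raised to background (limma adjusted p = 0.044) and when dim probe sets were left out of the fit (limma adjusted p = 0.0435). It also passed when the replicate number was fitted as a block (limma adjusted p = 0.0498).

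**Figure D2:**
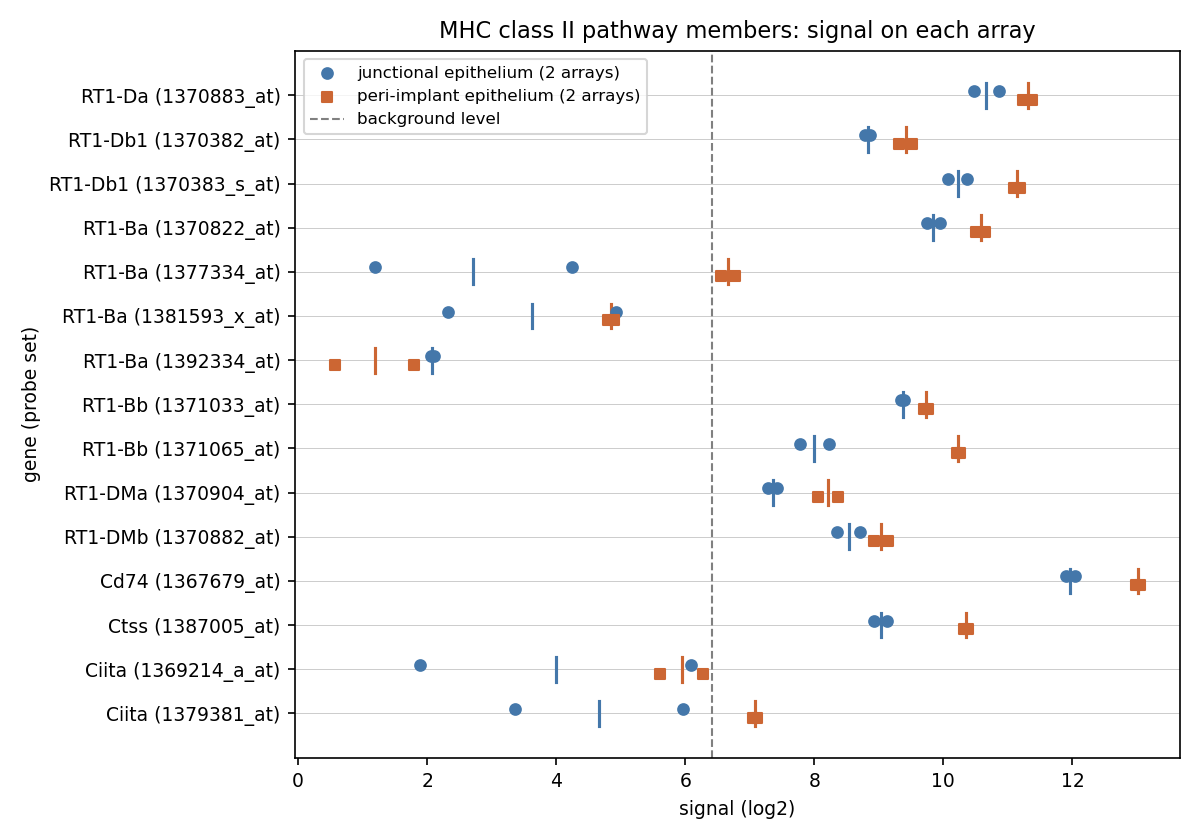
Log2 signal of all 15 member probe sets on each array (circles junctional, squares peri-implant, vertical bars group means of 2 arrays, dashed line the background level of 6.42). The 10 probe sets above background on all arrays have every peri-implant value to the right of every junctional value.

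Cd74 encodes the invariant chain itself and had the smallest error of the members. It read 11.89 and 12.05 on the junctional arrays and 13.04 and 12.99 on the peri-implant arrays, with a spread of 0.11 and 0.04 (SD, n = 2 each). It rose by 1.04 (SE 0.08, 95% interval 0.86 to 1.23, 2.06-fold, limma adjusted p = 0.000133). Without junctional array 1 the difference was 0.97 and just missed the threshold (limma adjusted p = 0.056), while it passed without each of the other arrays. Among 8813 other genes above background on all arrays, the 5 whose 4 values, centred on their own mean, differed least from those of Cd74 were Igsf9, Nrarp, Nectin3, Cdkal1 and Cxcl3. Their root mean square differences over 4 arrays were 0.03 to 0.04. The closest member was RT1-Db1 (1370383_s_at), at 0.09. The 5 genes were picked as the closest of 8813 on only 4 values, so their smaller differences are no comparison with the members.

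Ctss encodes cathepsin S, the protease that makes the last cut in the invariant chain in dendritic cells and B cells. It read 9.13 and 8.93 on the junctional arrays and 10.38 and 10.32 on the peri-implant arrays, with no overlap. The rise was 1.32 (SE 0.14, 95% interval 1.00 to 1.64, 2.49-fold, limma adjusted p = 0.000727). It passed without peri-implant array 1 and missed the threshold without each of the other arrays, with limma adjusted p of 0.056 without junctional array 1, 0.0736 without junctional array 2 and 0.0514 without peri-implant array 2.

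Ciita, the transactivator on which class II expression depends, was near the limit of detection. Probe set 1379381_at was below background on the junctional arrays (5.96 and 3.37) and above it on both peri-implant arrays (7.11 and 7.05), which is at least 1.58-fold higher with junctional signals raised to background. The measured difference of 2.42 had an SE of 0.80 and did not pass (limma adjusted p = 0.0952). The other Ciita probe set, 1369214_a_at, read 1.90 and 6.09 against 6.28 and 5.61, below background on all arrays, and carries no direction.

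Over the members, 6 of 15 probe sets rose, beside 4.74% of all 31042 probe sets, and 12 of 15 were higher in peri-implant epithelium without overlap of the arrays, beside 27.8% of all. The 1 probe set lower without overlap, beside 25.4% of all, was RT1-Ba 1392334_at, below background throughout. Of the 15 probe sets, 12 exceeded background on at least 1 array and 10 on all 4. The shares over all probe sets include dim ones, which vary more between replicates. Refitted on probe sets above background on at least 2 arrays, 8 of 12 member probe sets rose, beside 1945 of all 18099. The members were chosen with earlier results known, so these counts are a description. The median difference over the 15 was 0.92, beside 0.02 over all probe sets tested. It was 0.64 with signals raised to background, where the median over all was 0. With 1 probe set per gene, that with the highest mean, 5 of 9 genes rose, beside 7.39% of 14217 genes. RT1-Bb is then represented by 1371033_at and did not pass. Leaving out 1 array left 1 member probe set passing without junctional array 1, 2 without junctional array 2, 3 without peri-implant array 1 and 2 without peri-implant array 2. Fits without 1 array assume that the lone remaining sample of its group varies like the other group.

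**Figure D3:**
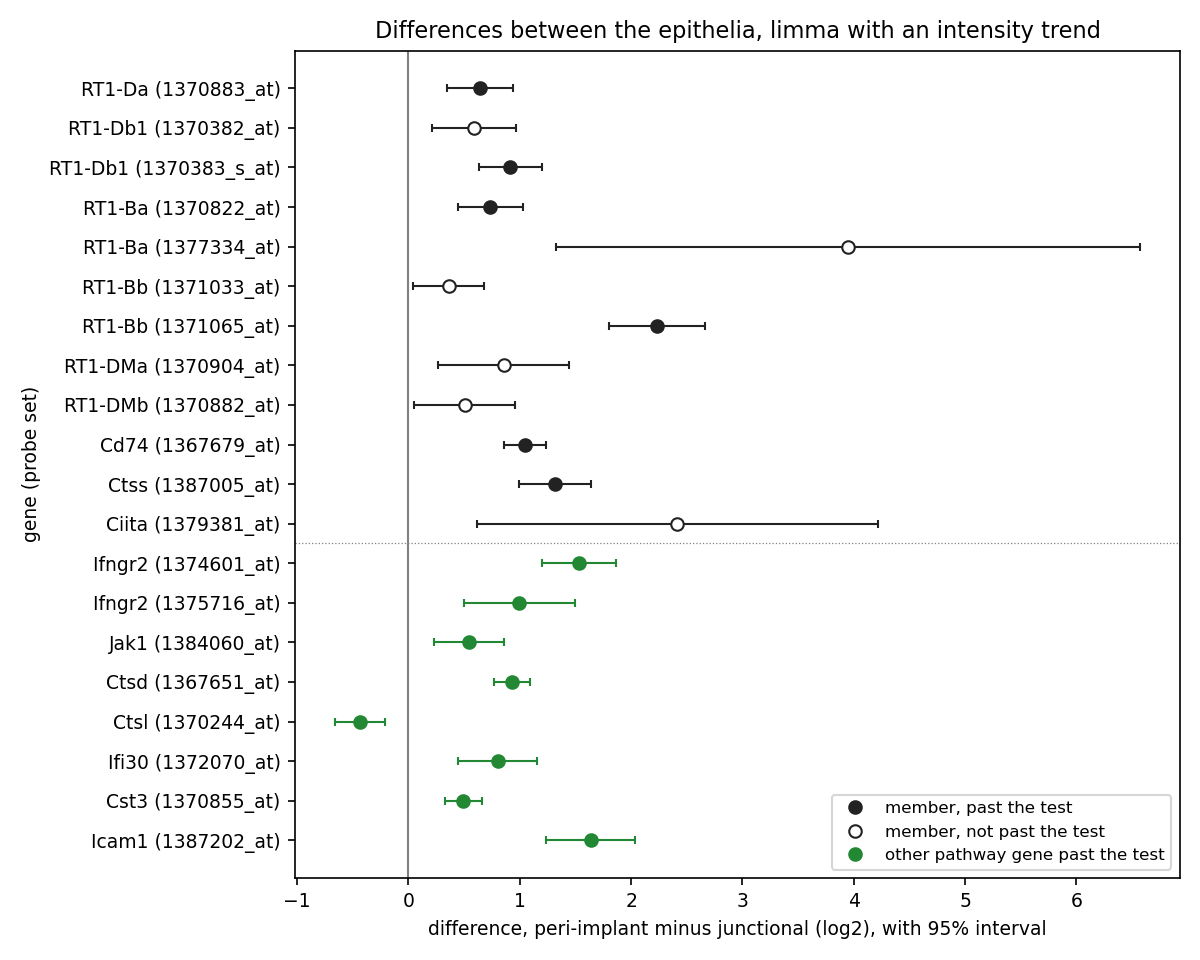
Differences between the epithelia in log2 units with 95% intervals from limma with an intensity trend, for the 12 member probe sets above background on at least 1 array (black, filled where past the test) and for the other class II pathway probe sets past the test (green). RT1-Bb 1371065_at has the largest difference among filled points, and Ctsl lies below 0.

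Calls in the machinery around the class II genes are given by list, and differences between the lists were not tested. A list of 36 further pathway genes had 31 measured on the array, among which 6 had a probe set that rose, 1 had one that fell and 24 had no call. By probe set, 7 of 48 rose and 1 fell, beside 4.74% and 4.16% of all probe sets. Refitted on probe sets above background on at least 2 arrays, 9 of 40 rose and 2 fell, beside 1945 and 1807 of all 18099. The median difference over the 48 was 0.15, beside 0.02 over all. The promoter factors Rfx5, Rfxap, Rfxank, Nfya, Nfyb, Nfyc and Creb1 had 0 calls over 13 probe sets, too few to be set apart from those shares, and a median difference of 0.04. Rfxap came nearest in the upward direction, with 7.08 and 7.66 against 8.70 and 8.15 (limma adjusted p = 0.0615), and Rfx5 differed by 0.17 (95% interval -0.36 to 0.71).

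Of the 7 measured interferon-gamma signalling genes, 2 rose and 0 fell. By probe set, 3 of 10 rose and 0 fell, beside 4.74% and 4.16% of all probe sets. Ifngr2, the signalling chain of the interferon-gamma receptor, read 8.65 and 8.82 against 10.26 and 10.28, a rise of 1.53 (SE 0.15, limma adjusted p = 0.000328), and its second probe set rose by 1.00. Jak1, a kinase bound to that receptor, rose by 0.54 on 1 of 2 probe sets and differed by 0.20 on the other. Ifng itself was below background on all arrays. Irf1, a transcription factor induced by the cytokine, read 9.23 and 9.76 against 9.40 and 9.60, which overlapped, and differed by 0.01 (95% interval -0.42 to 0.44). Socs1, an inhibitor that the cytokine also induces, read 5.63 and 5.20, below background, against 6.79 and 6.75 on 1 of 2 probe sets, at least 1.27-fold higher without overlap, and did not pass (limma adjusted p = 0.132). Its other probe set differed by 0.07.

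The endosomal proteases other than Ctss differed in direction. Ctsd, the aspartic protease cathepsin D, rose by 0.93 (SE 0.07, limma adjusted p = 0.000113), from 12.76 and 12.66 to 13.64 and 13.63. Ctsl, which takes the place of cathepsin S for invariant chain cleavage in thymic epithelium, read 12.07 and 11.98 against 11.70 and 11.48 and fell by 0.43 (SE 0.10, limma adjusted p = 0.027), and its second probe set differed by -0.35 (limma adjusted p = 0.103). Ifi30, a thiol reductase that opens disulfide bonds of antigens, rose by 0.80, and Cst3, the cathepsin inhibitor cystatin C, by 0.49. Ctsb, Ctsh and Lgmn did not pass. Thus 3 of 7 genes of this list rose and 1 fell. By probe set, 3 of 9 rose and 1 fell, beside 4.74% and 4.16% of all probe sets.

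None of the 5 genes for class II turnover and invariant chain partners passed on any of 10 probe sets, too few to be set apart from the shares over all probe sets. They were the ubiquitin ligases Marchf1, below background throughout, and Marchf8, the protease Sppl2a, which clears the last invariant chain stub, and the Cd74 ligand and co-receptor Mif and Cd44. Among costimulators, Icam1, an adhesion molecule for T cells, rose by 1.64 (SE 0.18, limma adjusted p = 0.000706). Cd86, Cd83 and Cd40 exceeded background on at most 2 arrays per probe set, and Cd80 on none. The other class II genes listed, RT1-DOa, RT1-DOb, RT1-Ha and RT1-Db2, were not matched to a probe set. Without junctional array 1, and likewise without junctional array 2, 0 of these 31 genes had a call. Without peri-implant array 1, and likewise without peri-implant array 2, 3 had one.

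Pan-leukocyte markers were higher in the same samples as the class II members. All 4 pan-leukocyte genes, Ptprc, Laptm5, Lcp1 and Coro1a, rose on all 6 of their probe sets, by 0.78 to 1.69. The linear signal summed over these probe sets was 1918 and 2054 on the junctional and 4233 and 4541 on the peri-implant arrays, each pair given in increasing order as in the sums that follow. The sum over the member probe sets, of which Cd74 was the brightest, was 9886 and 10765 against 19743 and 19879. Of 10 macrophage genes, each with 1 probe set, Csf1r and C1qc rose. Mrc1, a mannose-binding scavenger receptor, fell at least 2.22-fold to below background on both peri-implant arrays. Thus 2 of 10 probe sets rose and 1 fell, beside 4.74% and 4.16% of all. Without overlap of the arrays 8 were higher and 1 lower, beside 27.8% and 25.4% of all. Itgam, among those higher, and Cd163, whose arrays overlapped, were below background throughout. C1qb differed by 0.93 (limma adjusted p = 0.0598), C1qa by 0.73 (limma adjusted p = 0.0585), Adgre1 by 0.57 and Cd14 by 0.52, and they did not pass. Cd68, a lysosomal protein of macrophages, differed by 0.19 and did not pass. The sums of the list were 3178 and 3540 against 4700 and 5489.

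Of 7 dendritic cell genes listed, 4 were measured, each with 1 probe set, and none passed. That is too few to be set apart from the 4.74% and 4.16% of all probe sets that rose and fell. The median difference over the 4 was 1.01. Flt3 differed by 0.37 (limma adjusted p = 0.549). Itgax, the integrin chain CD11c, read 7.76 and 6.93 against 8.26 and 8.51 (limma adjusted p = 0.0713), and Batf3, a transcription factor of cross-presenting dendritic cells, differed by 0.99 (limma adjusted p = 0.104). Clec9a was below background, and the sums of the list were 364 and 442 against 641 and 804. Of the 2 genes listed for Langerhans cells, Cd207 was not matched to a probe set. The other, Cd1d1, is not specific to these cells, and its values are not read as a measure of them. Cd1d1 read 4.97, below background, and 6.56 against 7.60 and 7.72, at least 2.25-fold higher, and did not pass (limma adjusted p = 0.0532). B cell genes had sums of 604 and 637 against 734 and 773, where Blnk gave nearly all of the signal and Ms4a1 and Cd79b were below background on every array. Of the 5 T cell genes, Cd3d and Cd3e were below background on every array. Cd3g (5.55 and 6.02 against 6.98 and 7.10), Cd4 (5.35 and 6.31 against 7.08 and 7.42) and 1 of 3 Cd8a probe sets (5.41 and 5.94 against 6.43 and 6.96) were above background on both peri-implant arrays and on neither junctional array. With junctional signals raised to background, Cd3g was at least 1.54-fold higher, Cd4 at least 1.78-fold and that Cd8a probe set at least 1.21-fold. The summed T cell signal of 218 and 292 against 509 and 556 came from 8 probe sets of which none exceeded background on all arrays, and it is not a measured level. None of the B and T cell genes passed, over 3 and 8 probe sets, again too few to be set apart from the shares over all probe sets. Clec9a on junctional array 2 and Ms4a1 on peri-implant array 1 stood at 0, the floor of the scale.

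Epithelial markers had sums of 180608 and 185623 on the junctional arrays against 209072 and 246346 on the peri-implant arrays. The brightest probe sets, those of Krt5 and Krt14, weigh most in these sums. Of these 8 genes, 2 rose, Krt15 by 0.42 and Krt17, a keratin of activated keratinocytes, by 1.83. By probe set, 2 of 11 rose and 0 fell, beside 4.74% and 4.16% of all probe sets. Krt5, Krt14, Epcam, Cdh1, Tp63 and Dsp did not pass. The part of leukocyte number in the class II differences was not tested.

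**Figure D4:**
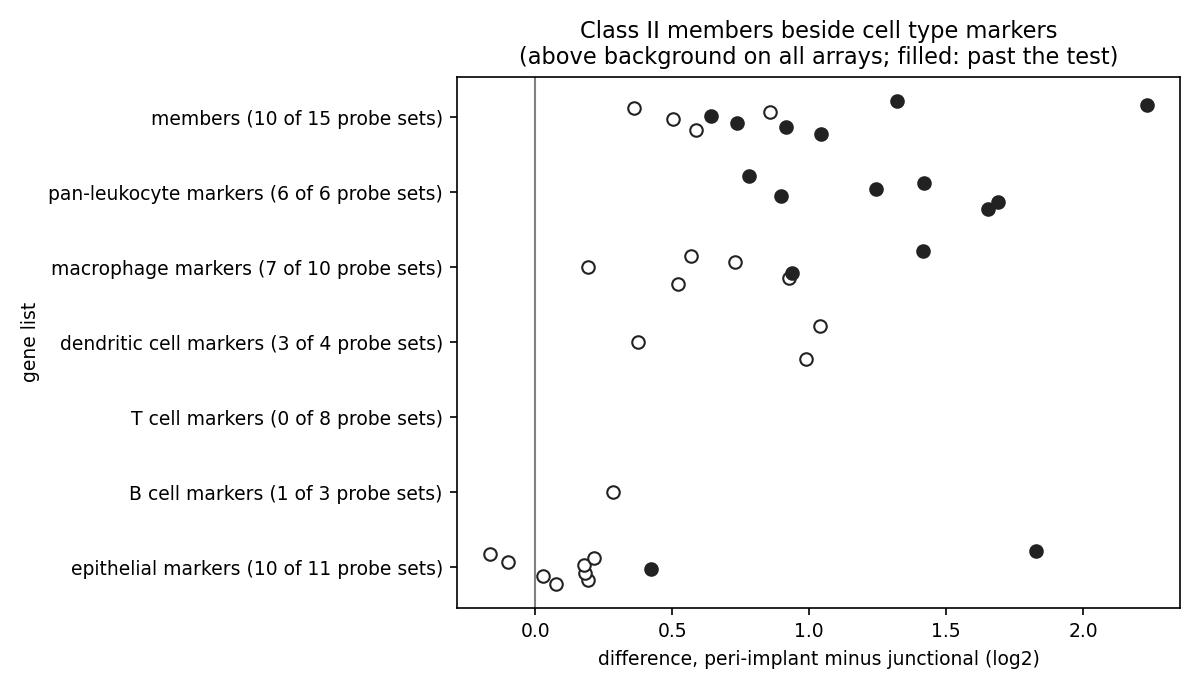
Difference between the epithelia in log2 units for each probe set above background on all 4 arrays, by gene list (filled where adjusted p was under 0.05 in limma with an intensity trend). All 6 pan-leukocyte probe sets are filled and lie between 0.78 and 1.69, and 6 of the 10 member probe sets shown are filled.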

How the data were processed

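The deposited values are log2 signals of 31099 probe sets in 4 samples. Per the labels' protocols, RNA was extracted with a column kit and DNase treatment, amplified and biotin-labelled; software and normalization of the authors: not given in the sources used here, and no array was normalized again. After 57 control probe sets were left out, 31042 were fitted in R 4.3.3 with limma 3.58.1 (lmFit, then eBayes with trend and robust options, two-sided, threshold 0.05), because the median SD between replicates fell from 1.44 at mean signals up to 3 to 0.078 above 11. Symbols came from the platform annotation, where 20826 probe sets carry 1 symbol, 436 several and 9780 none; positions and promoters came from RefSeq tables of GRCr8. A fold is given as at least where an array of the lower group was at or below background.

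The members, the lists, the prior and the naming rule were chosen with earlier results of these data known. The rule names every member probe set, the other pathway genes past the test, and the 5 genes closest to Cd74. Alternatives were the default prior, a prior without the robust step, quantile normalization, raised background, a filter on dim probe sets, 1 probe set per gene, leaving out each array, and the replicate number as a block.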

Additional observations from a re-analysis of the deposited data

How the results depend on the processing

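With limma's default prior, 0 member probe sets, 0 of all probe sets and 0 pathway genes passed, against 6, 2762 and 7. Quantile normalization and the trend without the robust step gave 6 and 7 member probe sets. Raising signals to background gave 8 member probe sets and 11 pathway genes and a median member difference of 0.64, against 0.92, and 1 probe set per gene gave 1810 calls over all genes. Leaving out 1 array gave 1 to 3 member probe sets, 73 to 353 of all probe sets, 0 to 3 pathway genes and a median member difference of 0.79 to 1.01. Under the same omissions 2 dim probe sets changed sign, Ciita 1369214_a_at to -0.14 (range to 4.05) and RT1-Ba 1381593_x_at to -0.081 (range to 2.52). The cause of these changes was not tested, beyond the fewer samples or genes of each fit. The titles share replicate numbers but do not say whether these pair the samples. Deviations of same-numbered arrays had a correlation of 0.06 over probe sets above background, which cannot settle this with 2 arrays per group. With the replicate number as a block, 10 member probe sets, 4202 of all and 12 pathway genes passed. RT1-Ba 1377334_at, Ciita 1379381_at, RT1-DMa and RT1-Db1 1370382_at, which did not pass in the fit without a block, were among them. Their limma adjusted p with the block ran from 0.0215 to 0.0498. Signals near background limit RT1-Ba 1377334_at and Ciita 1379381_at.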
